A study of Rattus norvegicus with 8 samples.

Results

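The kidneys of sham-operated rats served as the baseline of a study on how the kidney that is left adapts after the other one is removed. The series holds 8 rat kidney samples, and the 4 whose titles name the sham operation are described here, chosen by that label alone. Each is the right kidney of a male rat aged 10 weeks, of the inbred strain F344/NSlc, and no other genotype or agent is given for them. The rats are numbered as the replicates in the titles. The labels place them at day 1 after surgery, whereas the design text speaks of 2 days. RNA of whole kidney was labelled with Cy3 and hybridised to 1-colour Agilent rat miRNA arrays, 1 array per sample, all on 1 slide and scanned together. The design text counts 4 rats, so each array is taken as 1 rat, although nothing states that the RNA came from separate animals. No groups are compared here, so no p-value is given, and each value stands with its spread over the 4 rats.

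MicroRNAs are short RNAs that guide Argonaute proteins to messenger RNAs. They are cut from a hairpin precursor, of which the left arm gives the 5p and the right arm the 3p miRNA, and usually 1 of the arms is kept and the other degraded. Targets are recognised mainly through the seed, bases 2 to 8 of the miRNA, so miRNAs that share a seed form a family with overlapping targets. In the kidney, miR-192 and miR-194 are known as tubule miRNAs, the miR-30 and miR-200 families as epithelial, miR-126 as endothelial, and miR-143 and miR-145 as smooth muscle miRNAs.

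The 9 miRNAs with the let-7 seed are shown first because they held the largest share of the signal of any seed family in these kidneys. Each sequence is the RefSeq mature RNA of the rat build GRCr8, 5′ to 3′, with the seed in capitals; 685 of the 758 miRNAs on the array had an entry under their own name.
let-7a-5p: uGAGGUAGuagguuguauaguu
let-7f-5p: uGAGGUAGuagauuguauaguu
let-7c-5p: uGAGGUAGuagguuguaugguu
let-7b-5p: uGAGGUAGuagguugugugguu
let-7g-5p: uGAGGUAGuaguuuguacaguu
let-7d-5p: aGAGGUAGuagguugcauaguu
let-7e-5p: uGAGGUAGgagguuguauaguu
let-7i-5p: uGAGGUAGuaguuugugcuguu
miR-98-5p: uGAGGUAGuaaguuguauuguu

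Of the other leading seed families, miR-26, miR-23, miR-29 and miR-30 are shown because several of their members were among the brightest miRNAs, and miR-10a with miR-10b because they are paralogs. The miR-10 pair differs in seed, since for miR-10b the RefSeq entry starts at another base of a like stretch. The miR-22 and miR-16 seeds, which held more than the miR-10a seed, are not shown here.
miR-26a-5p: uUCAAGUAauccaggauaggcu
miR-26b-5p: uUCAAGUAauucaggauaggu
miR-23b-3p: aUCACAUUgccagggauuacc
miR-23a-3p: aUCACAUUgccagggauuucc
miR-29a-3p: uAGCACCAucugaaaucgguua
miR-29b-3p: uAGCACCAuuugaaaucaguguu
miR-29c-3p: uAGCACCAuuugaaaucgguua
miR-30a-5p: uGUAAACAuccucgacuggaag
miR-30c-5p: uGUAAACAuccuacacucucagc
miR-30e-5p: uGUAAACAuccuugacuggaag
miR-10a-5p: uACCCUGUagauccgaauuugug
miR-10b-5p: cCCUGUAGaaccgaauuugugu

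The tubule miRNAs of 1 precursor cluster on chromosome 1, miR-192-5p (chr1:212994232-212994252, plus strand) and miR-194-5p (chr1:212994038-212994059, plus strand), are shown as the check of the tissue. miR-194-5p has 2 loci, the other on chromosome 13, and its signal cannot be assigned to either.
miR-192-5p: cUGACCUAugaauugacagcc
miR-194-5p: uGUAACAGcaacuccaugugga

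Of the 758 miRNAs, 232 (30.6%) were detected on all 4 arrays and 495 (65.3%) on none, with 31 detected on 1 to 3. Detection is the scanner software's own call per miRNA, so an undetected miRNA is one whose level could not be told from background, which is not the same as absent. Single arrays had 242 to 253 detected miRNAs, and the summed signal of all miRNAs ran from 81607.5 to 94197.7 intensity units. No spot was saturated, so the brightest values are not capped. Levels of the 4 rats correlated pairwise at 0.994 to 0.999 over the detected miRNAs, as a description of arrays that share a slide. Between the brightest and the dimmest of the 232 lay a 3615-fold range of signal.

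The signal was held by few miRNAs. The 10 brightest held 45.2% ± 0.588 (SD, n = 4) of the summed signal and the 25 brightest 72.5% ± 0.426, while 13 miRNAs sufficed for 50%, 50 for 90% and 162 for 99% of the mean. All undetected miRNAs of an array together held 0.231% to 0.284%. A share is the percent of an array's summed miRNA signal; probes differ in how well they bind, so the order is one of array signal and not of molecules.

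**Figure D1:**
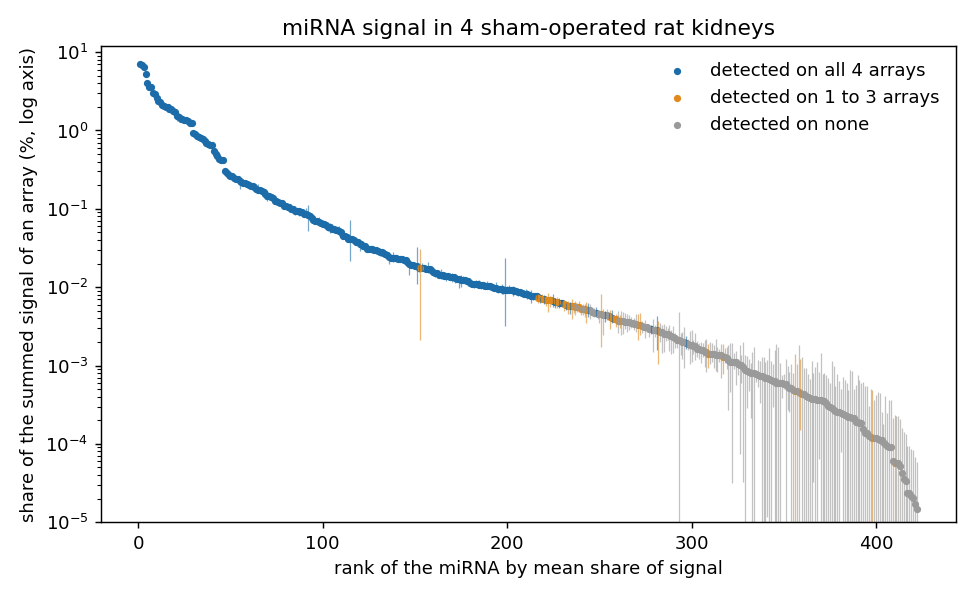
Each point is a miRNA, placed by its rank (x axis) and its mean share of the summed signal in percent on a log axis (y axis), with a line from the lowest to the highest of the 4 rats; miRNAs below the axis are not drawn. The curve falls from 7.01% at rank 1, and the miRNAs detected on none of the arrays lie at its low end.

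The let-7 miRNAs, which restrain growth and mark differentiated cells, filled the top 4 ranks. let-7a-5p took 7.31%, 6.87%, 6.89% and 6.98% of the signal in rats 1 to 4. For let-7f-5p the shares were 7.18%, 6.66%, 6.67% and 7.08%. The order of these neighbours was not the same in every rat: let-7a-5p led in rats 1, 2 and 3, and let-7f-5p in rat 4. let-7c-5p followed with 6.79%, 6.4%, 6.39% and 6.39%, and let-7b-5p with 5.33%, 5.11%, 5.18% and 5.23%. Both kept their rank in all 4 rats, and rat 1 had the highest share of all 4 miRNAs.

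Below them came miR-26a-5p, a miRNA of differentiated tissues, with 3.93%, 3.96%, 4.04% and 4.11%, again at the same rank in all rats. miR-23b-3p, which is cut from 1 transcript with miR-27b and miR-24, held 3.60% ± 0.122. miR-22-3p, known from heart and blood, held 3.54% ± 0.135. These neighbours could not be ordered, since miR-22-3p was the brighter in 3 of the 4 rats while the mean share of miR-23b-3p was higher. let-7g-5p (3.00% ± 0.0320) and miR-10a-5p (2.90% ± 0.0311), which lies in a Hox gene cluster, kept ranks 8 and 9 in every rat.

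Ranks 10 to 12 were close. miR-29a-3p, which represses collagen and other matrix genes, had shares of 2.40%, 2.53%, 2.66% and 2.68%. miR-21-5p, known for its rise in injured and fibrotic kidney, had 2.44%, 2.38%, 2.34% and 2.23%. miR-23a-3p had 2.29%, 2.28%, 2.28% and 2.28%, the smallest spread in share of any of the top 25. Rat 1 had the lowest miR-29a-3p and the highest miR-21-5p, so the pair changed order there.

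The tubule miRNA miR-192-5p stood at rank 14 in all 4 rats, with 2.05%, 2.09%, 2.06% and 2.05% of the signal. It lay between let-7d-5p (2.15% ± 0.0450) and miR-16-5p (2.02% ± 0.0353), a brake on the cell cycle. miR-26b-5p (1.97% ± 0.0235), miR-30a-5p (1.86% ± 0.0593), miR-10b-5p (1.86% ± 0.0605), miR-30c-5p (1.79% ± 0.0164) and miR-24-3p (1.74% ± 0.0476) completed the top 20. Among the next 5, miR-29b-3p came first only by its mean: its shares of 1.33%, 1.48%, 1.65% and 1.62% put it at ranks 21 to 25. The endothelial miR-126a-3p (1.5% ± 0.0594), miR-27b-3p (1.42% ± 0.0444), the epithelial miR-200b-3p (1.39% ± 0.0475) and miR-130a-3p (1.37% ± 0.0406) overlapped one another. Of the 25 steps from one rank to the next, counted down to rank 26, 16 had the same order in all 4 rats and 9 did not.

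**Figure D2:**
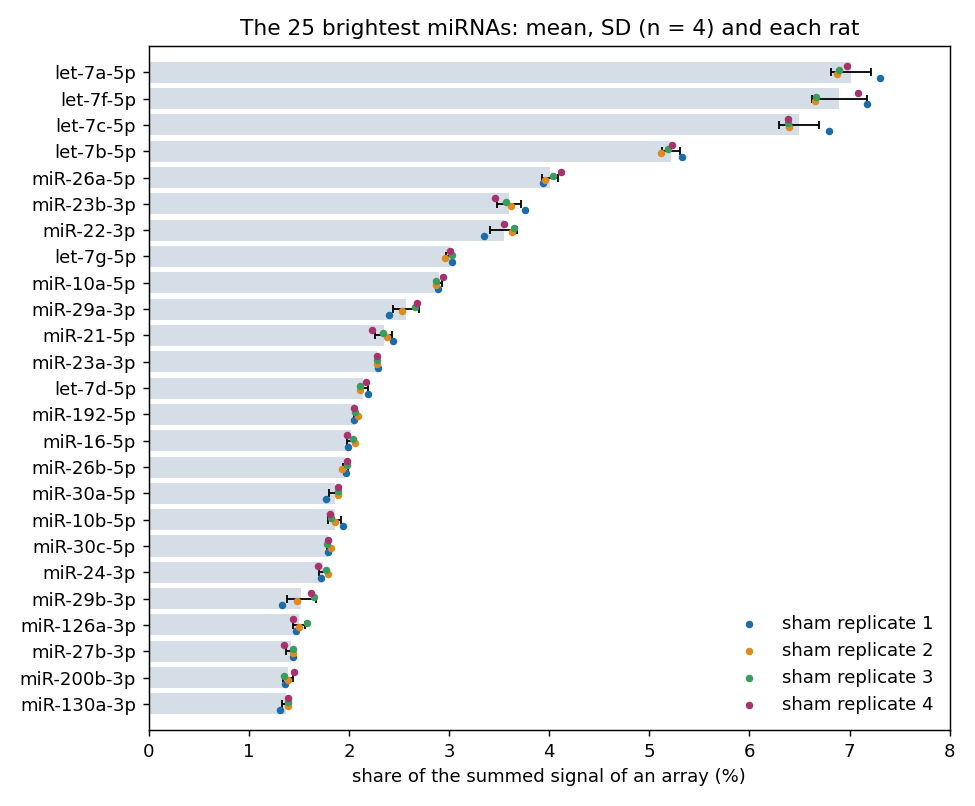
Bars give the mean share of the summed signal in percent (x axis, from 0) of the 25 brightest miRNAs, lines the SD over 4 rats and points the single rats. The bars run from 7.01% for let-7a-5p to 1.37% for miR-130a-3p, and the points of let-7a-5p and let-7f-5p overlap.

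Summed by seed, the let-7 family held 33.0% ± 0.821 (SD, n = 4) of the signal, with 34.1%, 32.3%, 32.4% and 33.1% in rats 1 to 4. All 9 of its members were detected in every rat, and the brightest, let-7a-5p, made up 21.2% of the family. The miR-26 seed held 5.98% ± 0.0966, the miR-23 seed 5.88% ± 0.125 and the miR-29 seed 5.35% ± 0.334. The miR-26 and miR-23 families traded places between rats: the miR-23 seed was ahead in rats 1 and 2, and the miR-26 seed in rats 3 and 4. The miR-29 seed had the widest relative spread of the 8 leading families, with 4.91% in rat 1 and 5.28%, 5.65% and 5.56% in rats 2 to 4.

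miR-30a-5p, miR-30c-5p and miR-30e-5p, the miR-30 members with an entry under their own name, held 4.34% ± 0.106, while miR-384-5p, which has the same seed, was undetected and listed at a share of 0 in all rats. The miR-22 seed, with 1 member, held 3.54% ± 0.135. The miR-16 seed had 5 members with an entry under their own name: miR-16-5p, miR-15b-5p, miR-195-5p, miR-497-5p and miR-322-5p. These miRNAs, which act on cyclins, together held 3.09% ± 0.0378, of which miR-16-5p made up 65.2%. miR-15a-5p (rank 72), miR-30b-5p (rank 36) and miR-30d-5p (rank 43) were detected in every rat but had no such entry. They count in no seed family, so the miR-16 and miR-30 shares and the order of the families leave them out. With the miR-10a seed at 2.90% ± 0.0311, these 8 seeds and their 27 members held 64.1% ± 0.464. Sequenced miRNAs in all held 93.3% ± 0.0956 of the signal and had 581 different seeds, of which 164 had a member detected in every rat.

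Members of a family can differ by a single base, and the array's probes may then read more than 1 of them. Of the 232 detected miRNAs, at least 61 had a relative on the array with at most 2 different bases, and so did at least 15 of the 25 brightest. Among these were let-7c-5p with let-7a-5p and let-7b-5p, miR-23b-3p with miR-23a-3p, and miR-29a-3p with miR-29c-3p. The counts are minimums, since only the 211 with a sequence could be compared. miR-10a-5p and miR-10b-5p, whose entries start at different bases, were not counted as relatives. How much of a member's signal came from its relatives was not tested.

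Detected and undetected miRNAs differed in their first base, while their median GC content was close, at 47.4% and 47.8%. Of 211 detected miRNAs with a sequence, 106 (50.2%) began with U, against 131 of 447 (29.3%) of the undetected ones. Among the 100 brightest, 52 of the 87 with a sequence (59.8%) did so. Of the signal of the sequenced miRNAs alone, those that begin with U held 73.7% ± 0.159, those with A 17.2% ± 0.0954, with C 8.26% ± 0.0668 and with G 0.758% ± 0.0282. Argonaute proteins are known to favour a U at the 5′ end of a miRNA. GC content and level were weakly related over the same 211 miRNAs, which share the arrays and the labelling (Pearson's r = -0.23, Spearman's rho = -0.18). The 35 with at least 60% GC had a median level of 3.89 on the log2 scale, against 5.56 for the 134 with 40% to 60% and 4.99 for the 42 under 40%.

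Levels from here on are log2 values of the signal after each array was divided by the 75th percentile of the 232 detected miRNAs and multiplied by the mean of those percentiles, so that a step of 1 is a doubling of signal. The labelled tissue was checked against lists of miRNAs known for a cell type; the lists were written with earlier results of these data known, and their counts are set beside the 30.6% of all miRNAs detected in every rat. Since whole kidney was measured, fewer cells of a type and less of a miRNA per cell cannot be told apart.

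The signal of the tubule list came mainly from its brightest members, miR-192-5p and miR-194-5p, while the others were dimmer or undetected. Of its 9 miRNAs, 4 were detected in all rats, 1 in some and 4 in none, and the list held 2.82% ± 0.0282 of the signal. miR-192-5p had levels of 10.82, 10.80, 10.79 and 10.81 and miR-194-5p of 9.19, 9.18, 9.22 and 9.14, a spread from lowest to highest of 1.03-fold and 1.06-fold. miR-204-5p, known from tubule and eye epithelium, was lower, with 5.51, 5.44, 5.58 and 5.81. miR-215, which in human shares the seed of miR-192, and miR-211-5p, a close relative of miR-204, were undetected.

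Of the 11 miRNAs of the miR-30 family, which protects podocytes and tubule cells, 10 were detected in all rats, and the family held 6.0% ± 0.126. Its leading members were miR-30a-5p (level 10.65 ± 0.0329), miR-30c-5p (10.60 ± 0.0208), miR-30b-5p (9.31 ± 0.0439) and miR-30e-5p (9.22 ± 0.0823). The miR-200 family, which keeps epithelial cells from turning mesenchymal, had 6 of 9 detected and 3.12% ± 0.0779 of the signal. Within it miR-200b-3p (10.23 ± 0.0574), miR-429 (9.51 ± 0.0285) and miR-200a-3p (9.48 ± 0.0341), which come from 1 precursor cluster, were far above miR-141-3p (4.95 ± 0.189), a member of the other cluster. Of the 10 Hox cluster miRNAs, which mark the position of a tissue along the body axis, 7 were detected, led by miR-10a-5p (11.29 ± 0.0337), miR-10b-5p (10.65 ± 0.0610), miR-196b-5p (7.94 ± 0.0391) and miR-196a-5p (7.59 ± 0.0703).

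Endothelial and stromal miRNAs were detected too. miR-126a-3p of endothelial cells had levels of 10.34, 10.32, 10.41 and 10.30, and the list held 1.57% ± 0.0619. Of 8 smooth muscle and fibroblast miRNAs, 5 were detected in all rats. Their brightest, miR-143-3p, had 9.51, 9.65, 9.68 and 9.56, followed by miR-199a-3p (8.88 ± 0.0322), miR-199a-5p (6.66 ± 0.0767) and miR-214-3p (6.56 ± 0.0739). The dimmest of the 5 was miR-145-5p (4.74 ± 0.0686), far below miR-143-3p although both come from 1 precursor cluster. Of 14 leukocyte miRNAs, 8 were detected, with 1.1% ± 0.0406 of the signal. miR-146a-5p, a brake on inflammatory signalling, led them at 8.78 ± 0.0519, ahead of miR-342-3p (7.54 ± 0.117), miR-142-3p (7.05 ± 0.136), which blood cells share, and the myeloid miR-223-3p (6.54 ± 0.0261).

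Of 5 red blood cell miRNAs, miR-451-5p was the only one detected in all rats, and the list held 0.0910% ± 0.0343 of the signal. Injury and hypoxia miRNAs were present at baseline mainly through miR-21-5p: of 8 on the array, 2 were detected in all rats, the other being the hypoxia miRNA miR-210-3p (4.21, 4.21, 4.31 and 4.61), and miR-132-3p was undetected. The growth-linked miR-17-92 cluster and its paralogs had 11 of 27 detected and 1.19% ± 0.0779 of the signal. Their leading members were miR-19b-3p (7.59 ± 0.207), miR-92a-3p (7.25 ± 0.165), miR-25-3p (7.22 ± 0.0218) and miR-20a-5p (7.16 ± 0.0891).

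The lists for other organs and stages are read against the 65.3% of all miRNAs that were undetected. Neither of the 2 liver miRNAs, miR-122-5p and miR-122-3p, was detected on any array. The same held for all 11 embryonic stem cell miRNAs, of which miR-290 (1.99 ± 0.161) was the brightest, and for all 23 miRNAs of the X-linked testis cluster, led by miR-471-5p. Of 89 miRNAs of the imprinted Dlk1-Dio3 region, which is active in embryo, placenta and brain, 77 were undetected and 9 were detected in all rats. Its brightest member was miR-494-3p, with levels of 6.89, 7.19, 7.08 and 6.80, far above miR-409a-3p (4.68 ± 0.105), miR-1188-3p (3.55 ± 0.0396) and miR-668 (3.26 ± 0.0540).

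In the muscle, neuron and pancreas lists the undetected share was 12 of 16, 17 of 23 and 9 of 12, not far from that of all miRNAs. Of 16 striated muscle miRNAs, 4 were detected in all rats and held 0.101% ± 0.00786 of the signal: miR-499-5p (5.48 ± 0.167), miR-1-5p (4.19 ± 0.146), miR-1b (3.45 ± 0.235) and miR-133b-3p (3.31 ± 0.0582). Of the same list, miR-1-3p, miR-133a-3p and miR-206-3p were undetected, as were both miR-208a arms. The detected miR-1b differs from miR-1-3p by 1 base, and the detected miR-133b-3p from miR-133a-3p by 1 base. Of 23 neuronal miRNAs, 4 were detected in all rats, with miR-128-3p (5.05 ± 0.0228) the brightest ahead of miR-9a-5p (3.16 ± 0.164), miR-129-1-3p (3.1 ± 0.0731) and miR-129-2-3p (2.89 ± 0.119), while miR-124-3p, the defining miRNA of neurons, was listed at 0. Of 12 pancreas miRNAs, 3 were detected, miR-7a-5p (3.62 ± 0.211), miR-375-3p and miR-7a-1-3p, and the miR-216 and miR-217 miRNAs of acinar cells were undetected. Of 7 miRNAs of the Sfmbt2 gene cluster, 3 were detected, led by miR-466b-3p (5.65 ± 0.0923).

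**Figure D3:**
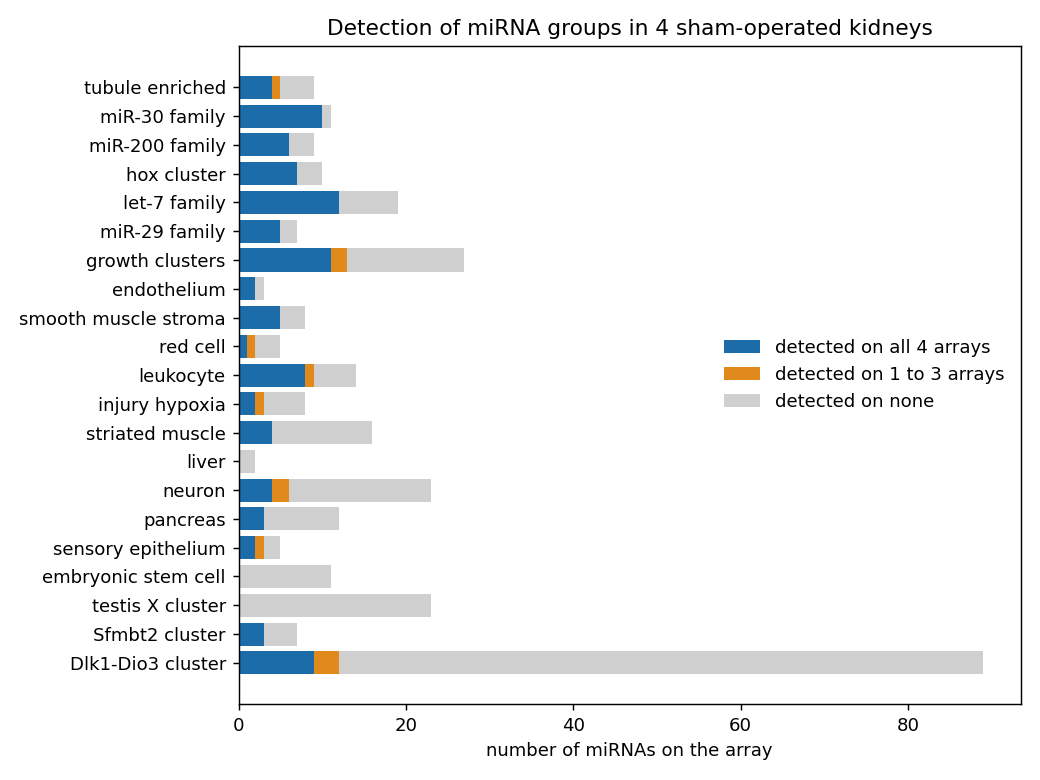
Each bar is a list of miRNAs, and its segments count the members (x axis, number of miRNAs) detected in all 4 rats, in 1 to 3 and in none. The miR-30 family is detected in 10 of 11 members, and the liver, embryonic stem cell and testis lists have no detected member.

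The border between detected and undetected was not sharp in level. The dimmest miRNAs detected in every rat were miR-339-3p (0.75 ± 0.232), miR-342-5p (1.20 ± 0.630), miR-30c-1-3p (1.33 ± 0.160), miR-29a-5p (1.79 ± 0.230) and miR-7a-1-3p (1.88 ± 0.129). The brightest undetected ones stood above them: miR-369-5p (2.28 ± 0.264), miR-299b-5p (2.17 ± 0.185), miR-547-5p (2.12 ± 0.284), miR-211-5p (2.06 ± 0.132) and miR-671 (2.00 ± 0.157). Detection takes account of the scatter of each miRNA's spots and can rest on 1 of its probes, whereas a level averages the probes. Of the 31 miRNAs detected in only some rats, the brightest were miR-3588, miR-1843b-3p, miR-3550, miR-3572 and miR-9a-3p.

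The arrays measure both arms of 281 hairpins by name. In 31 of them both arms were detected in all rats, in 110 the one arm was detected in all and the other in none, in 119 neither was detected, and in 21 an arm was detected in some rats only. Of the 110, the split was near even, with the 5p arm the detected one in 56 and the 3p arm in 54. Of the 31, the 5p arm was brighter in all 4 rats in 19 and the 3p arm in 11, and miR-582 was mixed. No test was made of either split. The median ratio of the brighter over the dimmer arm in the 31 was 8.70-fold, a log2 size of 3.12. A ratio compares different probes, so it carries their difference in binding as well as the difference in RNA.

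The strongest 5p hairpins included both miR-10 genes. miR-10a had log2 5p over 3p ratios of 8.29, 8.47, 8.53 and 8.41 (344-fold) and miR-10b of 8.34, 8.28, 8.47 and 8.17 (318-fold), with 3p arms at 2.86 ± 0.131 and 2.34 ± 0.137, the latter near the brightest undetected level of 2.28. let-7d (209-fold), let-7b (197-fold), miR-30b (118-fold) and miR-99a (104-fold) were the other hairpins with over 100-fold more 5p signal, and the ratios of each lay within 0.3 log2 units over the rats.

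On the 3p side, miR-29a stood first, with log2 ratios of -9.43, -8.96, -9.51 and -9.40, or 641-fold more 3p signal. Its 5p arm is printed here because the pair gave the largest ratio of any hairpin with both arms detected; the 3p arm carries the family seed given above. The 5p arm was dimmer than the brightest undetected miRNAs, and against the brightest of these in each array the 3p arm was 435-fold brighter (356-fold to 498-fold over the rats).
miR-29a-5p: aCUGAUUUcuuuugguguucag
Next were miR-200b (99-fold), miR-342 (81.1-fold, or 36.5-fold against the brightest undetected miRNA, above which its 5p arm did not rise either), miR-22 (80.5-fold), miR-126a (21.3-fold) and miR-29c (17.9-fold). The arm difference of miR-29c was thus much smaller than that of its paralog, with a 5p arm at 5.93 ± 0.0158 against 1.79 ± 0.230 for miR-29a-5p, though those arms are read by different probes.

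Hairpins near balance were fewer. For 7 of the 31 the arms were within 2-fold. miR-324 had ratios of 0.09, 0.02, 0.09 and 0.05, with arms at 6.73 ± 0.0374 and 6.67 ± 0.0366. miR-140, known from cartilage, had 0.12, 0.16, 0.18 and 0.21, although the 3p arm came out brighter when only the brightest probe of each arm was read. miR-582 changed sign between rats, with 0.13, -0.00, 0.14 and -0.06, so its arms could not be ordered. miR-542 (0.50 ± 0.0548), miR-139 (0.51 ± 0.147) and miR-340 (-0.53 ± 0.186) kept 1 direction in all rats.

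**Figure D4:**
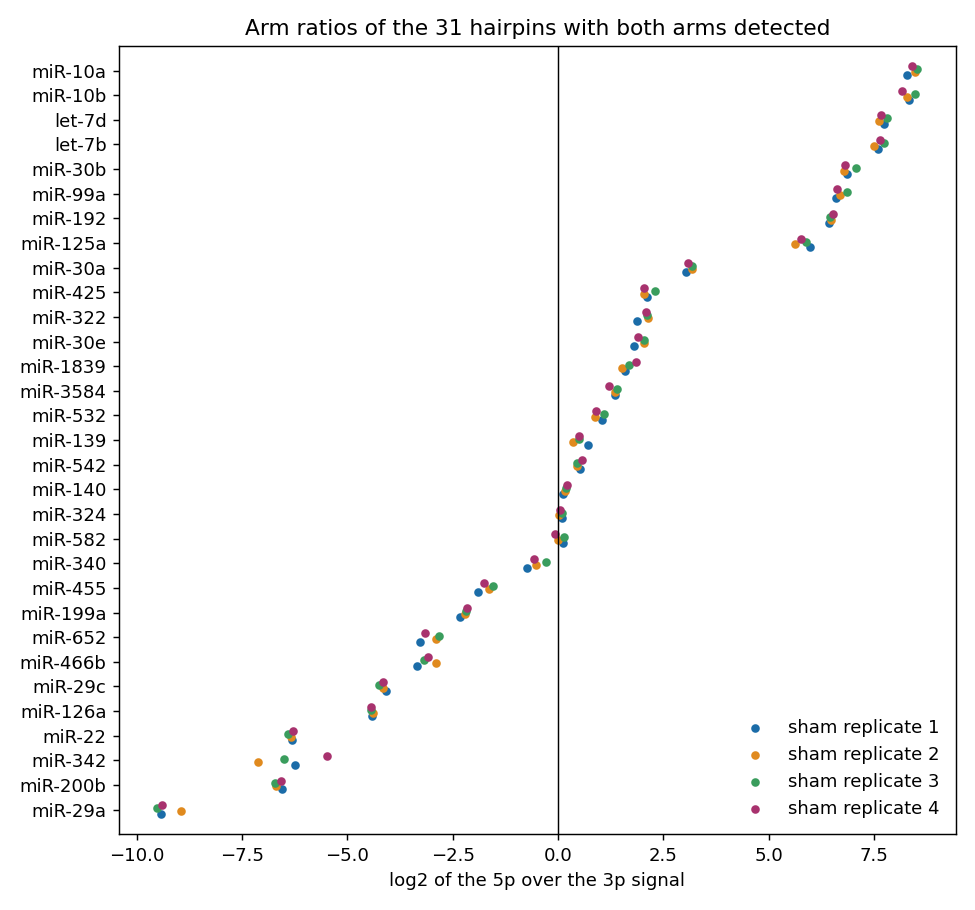
Each row is 1 of the 31 hairpins with both arms detected in all rats, and the points are the log2 ratios of 5p over 3p signal (x axis) in the single rats. Ratios run from -9.33 for miR-29a to 8.43 for miR-10a on average, and the points of a hairpin lie close together except for miR-342.

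Arm ratios varied little from rat to rat, with a median SD of 0.103 on the log2 scale. The widest was miR-342 (SD 0.673), whose dim 5p arm had levels of 1.44, 0.43, 1.03 and 1.91. Where the other arm was undetected, the ratio is a lower limit, the detected arm over the higher of the undetected arm's signal and the lowest signal of a detected miRNA on that array. The lowest signal of a detected miRNA ran from 0.133 to 1.39 scaled units over the arrays, so the limits differ widely between rats and the lowest of the 4 is given first. The 5p arm was at least 2498-fold brighter in every rat for miR-26a (7890-fold as the mean of the 4 log2 limits), 1873-fold for let-7g (5054-fold) and 1448-fold for miR-21 (4615-fold). The 3p arm was at least 2207-fold brighter for miR-23b (7080-fold), 1412-fold for miR-23a (4490-fold) and 1020-fold for miR-29b (2984-fold). Giving the lowest rat was a choice made after seeing the data. With the brightest undetected miRNA of each array as the limit, a more cautious choice also made after seeing the data, the mean ratios in the same order were 681-fold, 510-fold, 398-fold, 611-fold, 387-fold and 257-fold. Of the 110 hairpins, 48 passed 100-fold by the mean limit, 25 in every rat and 15 by the cautious limit.

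The brighter arm also differed in its first base. Over 122 hairpins with both sequences and a brighter arm, 67 of the brighter arms (54.9%) began with U, against 24 of the dimmer arms (19.7%), and the median GC content was 45.5% against 50%. No test was made of either difference.

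Many miRNA genes lie close together and are transcribed as 1 precursor. RefSeq hairpins on the same strand within 10 kb of each other formed 52 clusters of array miRNAs, of which 38 had a member detected in every rat. A miRNA made from several genes counts in each of its clusters. The cluster with the largest share was Mirlet7a1 to Mirlet7d (chr17:16320133-16322357, plus strand), at 16.1% ± 0.499. Mir24-1 to Mir23b on chromosome 17 held 6.76% ± 0.184 and Mir24-2 to Mir23a on chromosome 19 held 4.96% ± 0.0610, with miR-24-3p counted in both. In the former the 3 detected products ran from miR-23b-3p at 11.61 to miR-27b-3p at 10.26. Mir194-2 to Mir192, the tubule cluster, held 2.76% ± 0.0316.

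Clusters without a miRNA detected in every rat numbered 14. Among them were Mir295-1 to Mir290 on chromosome 1, with 10 miRNAs, Mir471 to Mir465 on chromosome X, with 18, and Mir770 to Mir136 on chromosome 6, with 15. The neighbouring Mir379 to Mir410 cluster of 31 hairpins had 8 of 59 miRNAs detected in every rat, from miR-494-3p at 6.99 down to 2.79.

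The 4 rats were close for most miRNAs. The SD of the log2 level over rats had a median of 0.0786 over the 232 detected miRNAs, with 144 under 0.1 and 5 over 0.3, and the highest rat was a median of 1.13-fold above the lowest. The scatter of the spots alone would give a median SD of 0.0259, and for 135 miRNAs the SD over rats was more than 2 times that. Spread fell with level, from a median SD of 0.125 in the dimmest 58 miRNAs to 0.0965, 0.0694 and 0.0438 in the sets of 58 above them. How much of it lies in the animals and how much in RNA preparation, labelling and hybridisation was not tested, since each rat has 1 array.

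miRNAs that hardly moved included miR-27a-3p (9.63, 9.65, 9.64 and 9.65), miR-425-5p (5.53, 5.55, 5.54 and 5.53), miR-16-5p (10.78, 10.78, 10.77 and 10.76), miR-497-5p (7.70, 7.68, 7.69 and 7.71) and the lymphocyte miRNA miR-150-5p (6.04, 6.04, 6.02 and 6.02). The SD of these 5 ran from 0.00718 to 0.0126. miR-192-5p was nearly as tight, with an SD of 0.0153.

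At the other end stood miR-375-3p, a miRNA of pancreatic islets and of some epithelial and neuroendocrine cells. Its levels were 1.51, 1.90, 2.45 and 4.34, and rat 4 was 7.12-fold above rat 1. Rats 1 and 2 lay under the brightest undetected mean level of 2.28, so the size of that fold is uncertain. The SD of 1.26 fell to 0.460 without rat 4 and ran from 0.164 to 1.52 over all alternatives. miR-96-5p and miR-183-5p, which are cut with miR-182 from 1 precursor cluster on chromosome 4 and are known from sensory cells, followed. Their sequences are given with those of miR-182 and miR-375-3p because all 4 were highest in the same rat; their seeds differ.
miR-375-3p: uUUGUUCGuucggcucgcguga
miR-96-5p: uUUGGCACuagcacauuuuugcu
miR-183-5p: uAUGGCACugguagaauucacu
miR-182: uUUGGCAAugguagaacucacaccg

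miR-96-5p had levels of 4.27, 5.01, 4.85 and 5.98, and miR-183-5p of 3.28, 3.78, 3.57 and 4.84. miR-182, detected in 3 rats, had 0.59, 1.78, 1.80 and 2.84. All 3 were lowest in rat 1 and highest in rat 4. The 5 miRNAs of this cluster held 0.0346%, 0.0578%, 0.0515% and 0.113% of the signal, and their other arms, miR-96-3p and miR-183-3p, were undetected. Without rat 4 the SD of miR-96-5p fell from 0.708 to 0.372 and that of miR-183-5p from 0.682 to 0.235. Other miRNAs highest in rat 4, picked after their values were seen, were miR-193a-3p (6.08, 6.10, 6.15 and 6.49), miR-365-3p (6.80, 6.80, 6.84 and 7.07), miR-203a-3p (6.19, 6.34, 6.25 and 6.57) and miR-34a-5p (5.74, 5.87, 5.82 and 6.11). Rat 4 was the highest for 76 of the 232 detected miRNAs, rat 1 for 72, rat 2 for 61 and rat 3 for 23. The deviation of rat 4 from the mean of the 4 rats had a median of 0.0165 over these miRNAs and an SD of 0.183, against medians of -0.0299 to 0.0070 and SDs of 0.0943 to 0.140 in the others. The epithelial miR-200b-3p was also highest in rat 4 (10.23, 10.21, 10.18 and 10.31), and the tubule miR-192-5p had levels of 10.82, 10.80, 10.79 and 10.81. The miR-200 family held 3.04%, 3.15%, 3.07% and 3.21% of the signal in rats 1 to 4. Not all its members followed miR-200b-3p. The shares of miR-141-3p (0.0293%, 0.0405%, 0.0390% and 0.0346%) and miR-200c-3p (0.0120%, 0.0148%, 0.0140% and 0.0146%) were highest in rat 2.

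The red blood cell miRNA miR-451-5p fell into pairs, with 6.64 in rat 1 and 6.59 in rat 3 against 5.65 in rat 2 and 5.52 in rat 4. Its SD of 0.596 was 41.9 times that expected from its spots. Of the other red blood cell miRNAs, miR-486, detected in 1 rat, had 2.25, 2.11, 2.52 and 2.12, and miR-144-5p, miR-144-3p and miR-451-3p were undetected. The list's share of the signal was 0.120%, 0.0649%, 0.121% and 0.0579% in rats 1 to 4. The part of blood left in the tissue in this pattern was not tested.

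**Figure D5:**
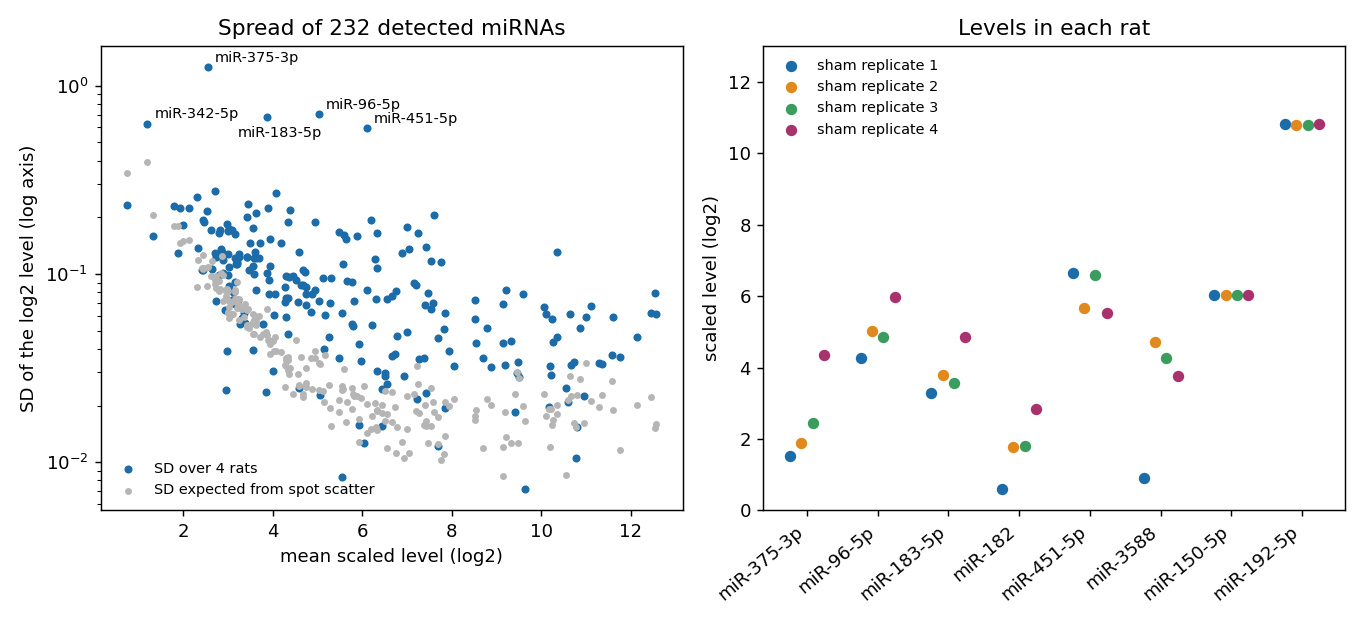
Left, the SD of the log2 level over 4 rats (log axis) is plotted against the mean log2 level for the 232 detected miRNAs, with the SD that spot scatter alone would give. Right, the log2 levels of 8 miRNAs in each rat show miR-375-3p and the miR-183 cluster highest in rat 4, miR-451-5p in pairs, and miR-150-5p and miR-192-5p level.

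Smaller movements ran through families. The 4 brightest let-7 miRNAs were highest in rat 1, by 1.08-fold to 1.11-fold over the lowest rat. miR-29a-3p, miR-29b-3p and miR-29c-3p were all lowest in rat 1, and miR-29b-3p had the widest spread of the 25 brightest (10.20, 10.30, 10.47 and 10.47). miR-19a-3p (3.67, 4.17, 4.17 and 4.27) and miR-19b-3p (7.29, 7.64, 7.69 and 7.75), which share a cluster and nearly all bases, were also lowest in rat 1. Without rat 1 the SD of miR-19a-3p fell from 0.269 to 0.0446, and that of miR-1b from 0.235 to 0.0425. The rest of the 10 widest were miR-342-5p (SD 0.630), miR-347 (0.277), miR-450b-5p (0.256) and miR-339-3p (0.232), all at mean levels under 3. For miR-450b-5p the SD was 0.132 without rat 2.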

How the data were processed

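Per the file headers, the deposited scanner tables come from Agilent Feature Extraction, version 12.0.3.1. They hold intensity values per spot on a linear scale, background-subtracted, and other columns of 0 or 1 for detected miRNAs and for outlier or saturated spots. RNA was purified and labelled with commercial kits, per the labels' protocols. The deposited value table holds log2 values and served as an alternative; its column medians were -0.052, -0.13, -0.25 and -0.094. Its values matched the scanner's log2 total signal within 1.09e-05 after a shift per miRNA and array; the rule of that shift and its centring stay unknown. Its 4 columns of other samples were not used.

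The 758 miRNAs of an array were read by 1806 probes in 12128 spots. Control spots and outlier spots (8.34% to 9.01%) were left out, spots averaged per probe and the 1 to 4 probes per miRNA, with Python 3.11.15. Negative values counted as 0 in shares; for levels, a floor of 0.133 was set before log2, which no value of the 232 detected miRNAs reached. The number of arrays limits the precision. Code was tested on simulated data. Normexp used limma 3.58.1 in R 4.3.3.

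The kidneys and lists were chosen with earlier results of these data known. MiRNAs were named by a rule: the 25 brightest, the extremes of level, spread and arm ratio, the 4 brightest of each list and the members of 8 seed families. The sequences are RefSeq's. Alternatives covered outlier spots, background, scaling, probes, detection and each rat.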

Additional observations from a re-analysis of the deposited data

Results flagged for a closer look

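Among the miRNAs named here, 4 had a rat far from the other 3, with a gap that took up most of the range. miR-19a-3p, of the miR-17-92 cluster, was at 3.67 in rat 1 against 4.17 to 4.27 in the others. The striated muscle miRNA miR-1b was at 3.1 in rat 1 against 3.53 to 3.60. miR-24-3p was at 10.52 in rat 4 against 10.57 to 10.58, a gap that is narrow in absolute size. The neuronal miR-9a-5p was at 3.41 in rat 4 against 3.06 to 3.1. All are log2 levels. Such gaps arise by chance in about 1 of 20 sets of 4 values, so 6.6 were expected among the 132 sets of values searched. Among the levels of the 232 detected miRNAs 11.6 were expected and 14 showed one, 7 of them in rat 1 and 6 in rat 4.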

How the results depend on the processing

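The alternative that moved the profile most was normexp background correction with an offset of 50, which leaves that offset on every signal. With it the 10 brightest miRNAs held 30.5% of the signal, the let-7 seed 22.4%, 26 miRNAs were needed for 50%, and the median log2 arm ratio was 1.73. Under the other probe, spot and scaling choices these results kept within the spread over rats or within 1.5 times, except that the brightest probe alone gave a median arm ratio of 3.38 and turned miR-140 to a ratio of -0.35. Detection by spots well above background left 155 miRNAs detected and 575 undetected, and 6 hairpins with a brighter 5p and 5 with a brighter 3p arm, since fewer arms passed. Keeping only arms brighter than every undetected miRNA, chosen after seeing the data, left 19 hairpins with a brighter 5p and 9 with a brighter 3p arm. Leaving out a rat gave 233 to 237 detected miRNAs and shares of the 10 brightest of 45.0% to 45.4%. The median SD over rats ran from 0.0593 to 0.108 over the alternatives, lowest with normexp and highest without scaling. For single miRNAs, 494 of 1511 recomputed SDs, 291 of 1424 shares and 38 of 169 arm ratios moved, SDs by over 1.5 times and the others by more than the SD over rats. Most of the arm ratios depended on probe and background choice. The brightest probe alone moved 16, reversed 1 and left 1 the same, and normexp moved 15 and left 3. Of the shares, the brightest probe moved 103 and left 43, and normexp moved 139 and left 7. No paired analysis was possible because no groups are compared. Dim miRNAs near background are the least certain, and 1 array per rat gives no measure of repeat error.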

Other observations

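Several rat miRNAs lie on opposite strands of the same positions, and the arrays carry both members of such pairs. Of 45 pairs with at least 10 shared bases in RefSeq, none had both members detected in all rats. In 22 the one was detected in all rats and the other in none. Over all 758 miRNAs, 30.6% were detected in all rats and 65.3% in none, and the counts of pairs were not tested against these shares. let-7a-5p, at 12.65, 12.52, 12.53 and 12.57, lies opposite miR-3596a, which was undetected at 2.01, 1.72, 1.19 and 1.5. miR-29a-3p, miR-29b-3p and miR-29c-3p likewise lie opposite undetected miRNAs, all of them at the floor.

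The dimmer member was detected in more than 1 rat for 1 pair only, through miR-3588 (chr11:29732588-29732609, minus strand), the exact reverse complement of miR-125b-5p on the plus strand of the same positions. The miRNAs of these pairs were picked after their values were seen, and the sequences show the layout.
miR-125b-5p: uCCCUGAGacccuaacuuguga
miR-3588: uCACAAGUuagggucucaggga
miR-3588 was detected in 3 rats, with log2 levels of 0.90, 4.72, 4.26 and 3.76, the lowest in rat 1. miR-125b-5p was nearly constant, at 10.23, 10.23, 10.17 and 10.17. The levels of the pair thus did not move together, and no test of this was made.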
